A study of Mus musculus with 207 samples.

Results

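The interferon response genes are 44 genes chosen by symbol from the genes that cells switch on when interferons bind their receptors. All 44 were found by Ensembl identifier among the 55536 genes of the jejunum and liver tables, and 42 of them among the 21883 genes of the hypothalamus table, where Mx1 and Mx2 were not matched. They were followed in bulk RNA-seq of jejunum, liver and hypothalamus from C57BL/6 mice given 1 of 6 diets. Each diet joined a protein, CAS or WPI (names taken to mean casein and isolated whey protein), at a labelled protein level of 30 with a labelled fat level of 20, 40 or 55, written FAT-20, FAT-40 and FAT-55. There were 207 libraries in 18 groups of 10 to 12, from 74 animal identifiers, 63 of them with all 3 tissues. No group carried a transgene or a drug in the labels, and age, sex, batch and date were not among the labels used here. Each library has an animal identifier, and identifiers share stems that differ only in the last character (24 stems in each tissue, 4 for each diet). The labels do not say what the stem marks, and all libraries of a stem had the same diet, so p-values measure the spread between libraries, and libraries of 1 stem may not be independent. Counts of members that changed by more than 1.5 times with counts summed by stem are given beside the results. Identifiers were taken as spelt. Those of 1 CAS FAT-55 stem are spelt differently in hypothalamus and were not joined to the other tissues, and 1 CAS FAT-20 identifier has another library number in liver than in jejunum, so the numbers of animals and of stems shared between tissues rest on these spellings.

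Interferons act along a pair of main routes. Type I and type III interferons act through a complex that holds STAT2 and IRF9 and binds the interferon-stimulated response element (ISRE) before antiviral genes. Type II interferon, made by T cells and natural killer cells, acts through the gamma-activated site (GAS) before genes for antigen presentation, chemokines and GTPases. In the small intestine the response is known for defence of the epithelium and for signals from intraepithelial lymphocytes, and in liver for cross-talk of hepatocytes with Kupffer cells and lymphocytes.

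The promoters show how far the 44 genes share these elements. RefSeq promoter entries (GRCm38.p6, from 250 bases before to 50 after the start) were matched for 33 of the 44. The ISRE core, read as GAAA, any 2 bases and GAAA again on either strand, was present in 19 of these 33 (57.6%), counted by gene over all entries of a gene, against 3.99% of all 27025 genes in the table (3.44% of its 32851 promoters, all of the same length). The GAS motif, TTCNNNGAA, which reads the same on both strands, was present in 9 of 33 (27.3%), against 9.55% of all genes (8.30% of promoters). All 6 GTPases and both sensors in the table had an entry with the ISRE core, though 1 of the 2 entries of Gbp3 had none. So did 7 of 11 antiviral effectors and 0 of 4 genes of the immunoproteasome and peptide transport group. The matches of the sensors Ifih1 and Ddx58 began after the start, at bases 33 and 3, as did that of the effector Eif2ak2, at base 19. The 120 bases before the start of 6 members are shown because their genes carry the results below, with the ISRE core and GAS matches in capitals.
Isg15: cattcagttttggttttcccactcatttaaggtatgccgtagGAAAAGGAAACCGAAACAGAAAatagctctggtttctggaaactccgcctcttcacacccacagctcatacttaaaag
Ifit1: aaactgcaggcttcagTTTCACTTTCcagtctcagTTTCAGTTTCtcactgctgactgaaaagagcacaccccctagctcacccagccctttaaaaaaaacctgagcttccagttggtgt
Gbp2: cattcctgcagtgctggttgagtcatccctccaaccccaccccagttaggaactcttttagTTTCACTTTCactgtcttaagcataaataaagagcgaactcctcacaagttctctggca
Igtp: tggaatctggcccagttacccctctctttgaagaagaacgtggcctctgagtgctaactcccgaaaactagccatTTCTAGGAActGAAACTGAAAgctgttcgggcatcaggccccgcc
Irgm2: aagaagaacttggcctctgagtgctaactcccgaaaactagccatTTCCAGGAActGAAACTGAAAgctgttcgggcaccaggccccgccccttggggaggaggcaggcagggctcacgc
Psmb8: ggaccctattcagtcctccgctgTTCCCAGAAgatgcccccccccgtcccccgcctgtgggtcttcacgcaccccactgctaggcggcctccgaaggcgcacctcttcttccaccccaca

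These windows lie at chr4:156200819-156200938 (minus strand) for Isg15, chr19:34640769-34640888 (plus strand) for Ifit1, chr3:142620543-142620662 (plus strand) for Gbp2, chr11:58199436-58199555 (plus strand) for Igtp, chr11:58214857-58214976 (plus strand) for Irgm2 and chr17:34198075-34198194 (plus strand) for Psmb8, each written in the direction of its gene. Isg15, a ubiquitin-like protein that is joined to other proteins, had 3 overlapping ISRE cores, the first base of each at -78, -72 and -66 from the start. Ifit1, which binds foreign RNA and blocks its translation, had ISRE cores at -104 and -85, and Gbp2, a guanylate-binding protein, had 1 at -59. Igtp and Irgm2, immunity-related GTPases that protect host vacuoles, each had a GAS followed closely by an ISRE core, with the bases ct between them. The GAS began at -45 and the ISRE core at -34 in Igtp, and at -75 and -64 in Irgm2. These neighbouring genes shared a run of 38 bases in the windows, against at most 12 bases for any other pair of the 6. Psmb8, an immunoproteasome subunit, had a GAS at -97 and no ISRE core in the window. The Irgm2 and Psmb8 windows lie inside the annotated genes, which begin at chr11:58199618 and chr17:34197721. The Gbp2 and Ifit1 windows run past the annotated starts, at chr3:142620602 and chr19:34640871. The ISRE core of Gbp2 lies after its annotated start, and those of Ifit1 lie before. The matches of these windows or their positions, and the counts of members with a match, thus depend on the RefSeq start used. A match is a description of letters, not a measured binding site.

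Reads on genes were 17.5 to 23.8 M (M, the SI prefix mega) for a jejunum library, 21.0 to 41.0 M for a liver library and 14.4 to 16.1 M for a hypothalamus library. Tissue markers were in place in every library, among them Fabp2 (lowest 3410 CPM) in jejunum and Alb (lowest 47053 CPM) in liver. In hypothalamus Avp had a lowest normalised count of 1016. CPM is the count of a gene scaled to its library's total over the genes tested, with that total adjusted by TMM normalisation. Marker sums differed between hypothalamus libraries. Summed blood markers were 58495 in CAS FAT-20 replicate 6 and 2833 in WPI FAT-40 replicate 4. Summed thalamus markers were 20027 in WPI FAT-55 replicate 1 and 5946 in CAS FAT-55 replicate 3. Some libraries stood apart, by a mean log2 level of the 7 GTPases more than 1 above the median of their diet, a limit chosen after seeing the data. They were jejunum CAS FAT-20 replicate 3 (1.21 above), CAS FAT-55 replicate 5 (1.498 above) and WPI FAT-40 replicate 5 (2.01 above), and liver CAS FAT-20 replicate 4 (1.83 above). Jejunum CAS FAT-20 replicate 3 was the highest library of its diet for 37 of the 44 members, CAS FAT-55 replicate 5 for 39, and liver CAS FAT-20 replicate 4 for 41. The same animals were highest of their diet for 0, 1 and 0 members in the other of these tissues. The 7 GTPases that picked the libraries are among the 44, so part of the counts in the picked tissue follows from the choice. The share of all genes that were highest in these libraries was not counted. The mouse of jejunum WPI FAT-40 replicate 5 was among the 3 highest of its diet for 37 members in jejunum and for 33 in liver. The summed T cell markers of the 3 jejunum libraries (211, 197 and 138 CPM) ranked first, first and second in their diets, whereas their summed B and plasma cell markers (857, 110.9 and 792 CPM) ranked 11 of 11, 11 of 11 and 9 of 12. The summed Kupffer cell (765 CPM), macrophage and dendritic cell (542 CPM) and T cell (21.9 CPM) markers of the liver library each ranked first. Their part in these levels was not tested. Results that rest on these libraries are given with and without them. As they were picked by levels of members, counts without them are shifted by that choice and are no independent check.

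**Figure D1:**
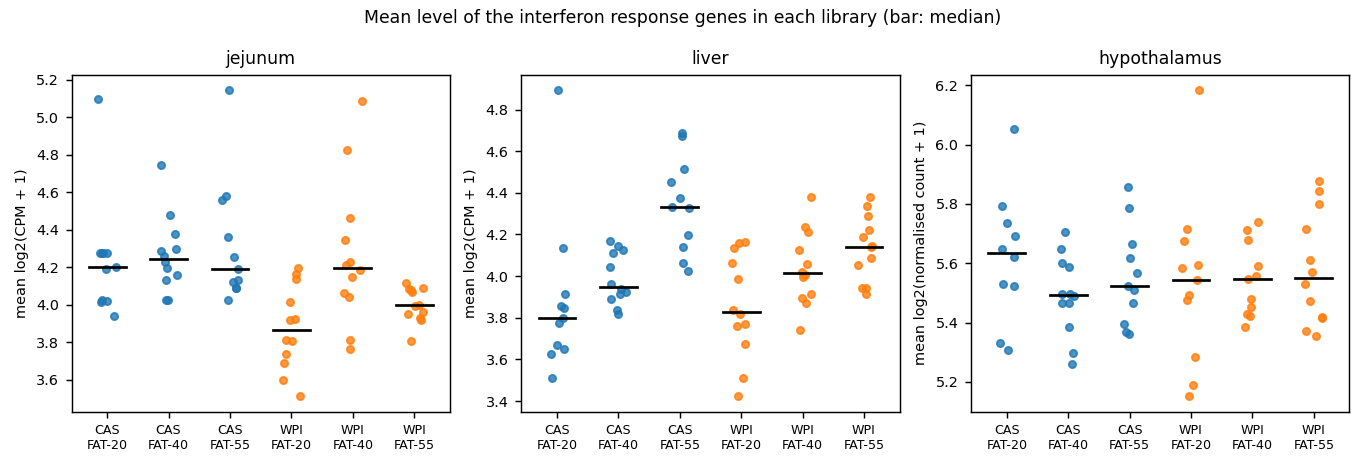
Mean level of the interferon response genes in each library, as mean log2(CPM + 1) in jejunum and liver and mean log2(normalised count + 1) in hypothalamus (y axis), by diet (x axis), with 1 point per library, CAS in blue, WPI in orange and a bar at the median. Jejunum medians run from 3.87 on WPI FAT-20 to 4.24 on CAS FAT-40, liver medians rise from 3.80 to 4.33 on CAS and from 3.83 to 4.14 on WPI between FAT-20 and FAT-55, and single libraries near 5 stand above the rest of their diet.

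The order of members by level per kilobase of exon differed between tissues. In jejunum the highest medians over 70 libraries were those of Psmb10 (72.6 CPM per kilobase), an immunoproteasome subunit, Irf1 (30.9) and Irf7 (21.3), transcription factors of the response, and Oasl1 (19.7), an inhibitor of Irf7 translation. The interquartile ranges over libraries did not overlap between Psmb10 and Irf1 or between Irf1 and Irf7, whereas those of Irf7 and Oasl1 did. In liver Bst2 (84.9), a membrane tether for budding viruses, and Iigp1 (62.3), an immunity-related GTPase, led, ahead of Irgm2 (19.9) and Igtp (16.7), whose interquartile ranges overlapped. In hypothalamus, on the scale of normalised counts per kilobase, Psmb10 (333), Cmpk2 (139), a mitochondrial nucleotide kinase, and Ifit3 (129) led. The lowest were Ifi44 in jejunum (0.489), Oas3 in liver (0.261) and Cxcl9 in hypothalamus (median 0, and 0 in 47 of 67 libraries). Gene lengths were taken from GENCODE M21.

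**Figure D2:**
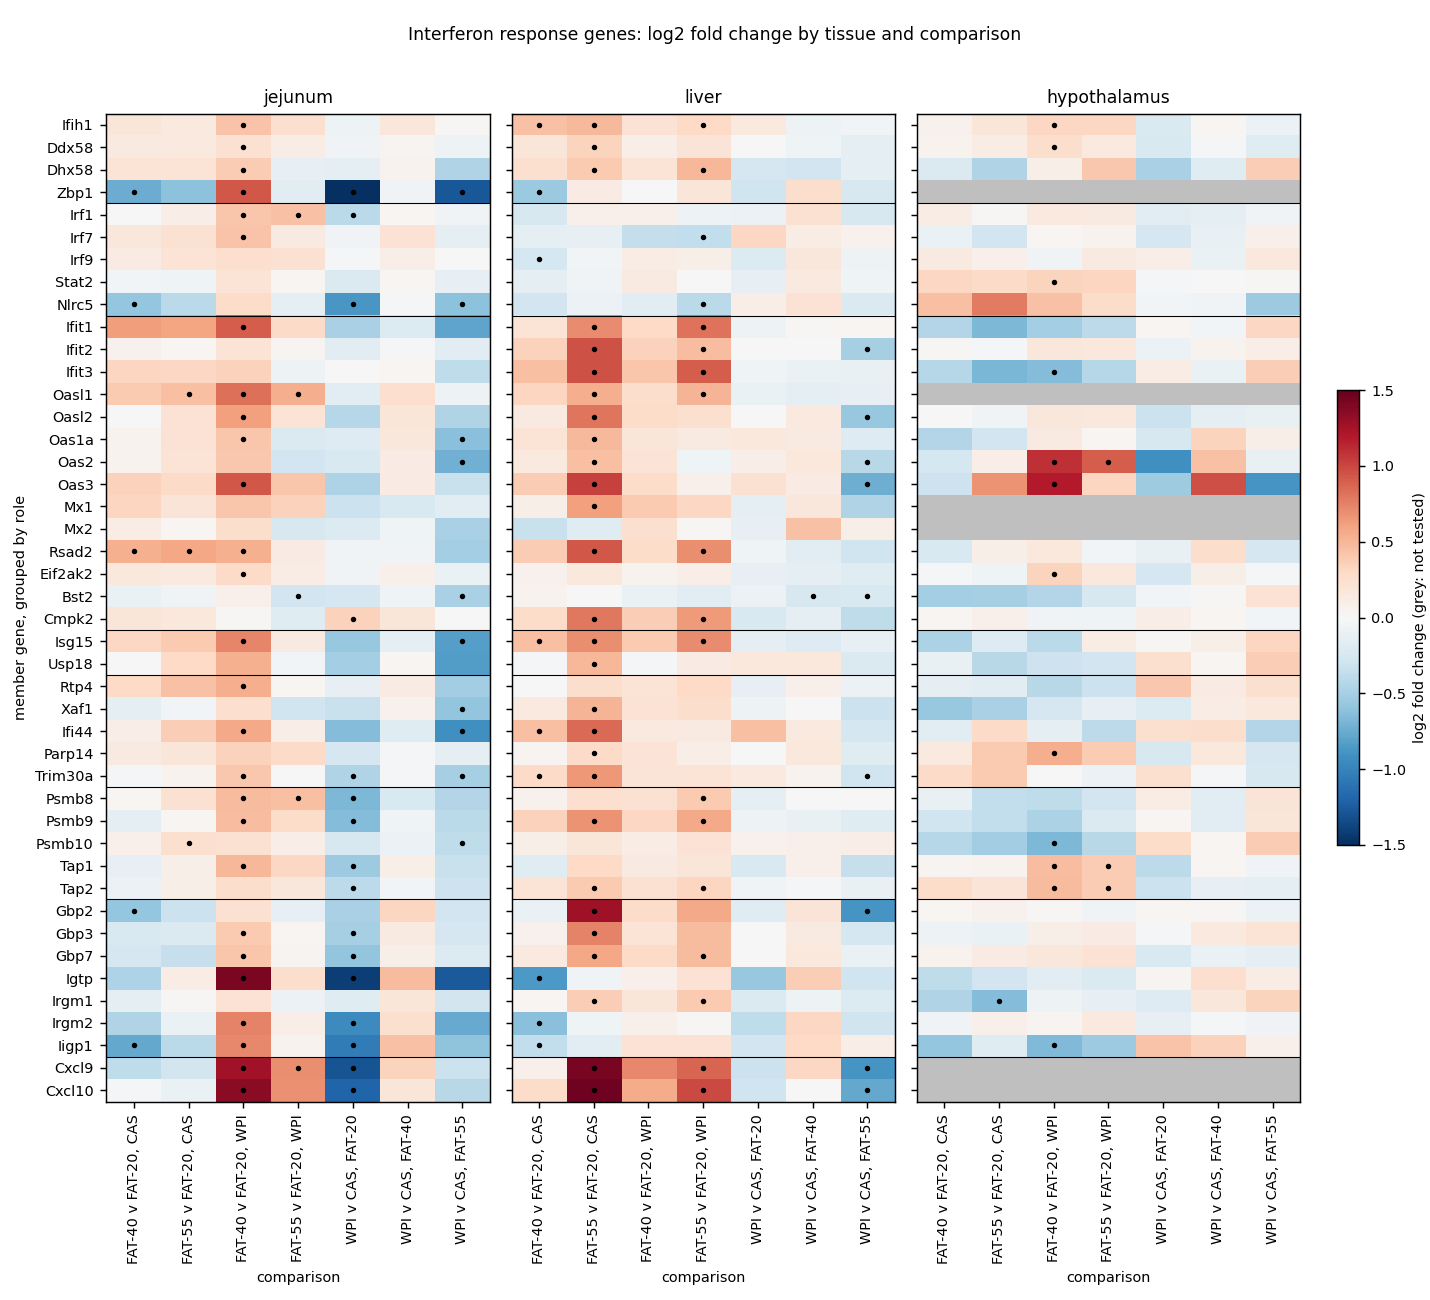
Log2 fold change of each of the 44 members (y axis, grouped by role) in 7 comparisons for each of 3 tissues (x axis), with colour from blue (lower) to red (higher), a dot where the adjusted p was under 0.05 and grey where the gene was not tested. Blue with dots fills the jejunum column of WPI against CAS at FAT-20 (15 lower), and red with dots the columns of FAT-40 against FAT-20 on WPI in jejunum (27 higher) and of FAT-55 against FAT-20 on CAS in liver (28 higher).

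The first comparison asked how the protein of the diet moved the response in jejunum. Averaged over the fat levels, 21 of the 44 members were lower on WPI than on CAS and 1 was higher (edgeR's quasi-likelihood test, Benjamini-Hochberg adjusted p under 0.05 over 16992 genes), where 8.83% of all genes tested were lower and 6.5% higher. The median log2 fold change was -0.24 over the members and -0.01 over all genes. The members that fell were Zbp1, Nlrc5, Ifit1, Bst2, Isg15, Usp18, Xaf1, Ifi44, Trim30a, all 5 of the immunoproteasome and peptide transport group, 5 of the 7 GTPases (Gbp3, Gbp7, Igtp, Irgm2 and Iigp1) and both chemokines. Cmpk2 rose by 0.17 ± 0.05 on the log2 scale. Values in brackets after a gene are log2 fold changes, with their standard error (SE) where one is given. Irf7 (0.01 ± 0.08), Oasl2 (-0.24 ± 0.11) and Gbp2 (-0.15 ± 0.10) did not pass the test. In bulk tissue, fewer cells of a type and less RNA per cell cannot be told apart.

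At FAT-20, 15 members were lower on WPI and 1 was higher, against 3.57% and 2.66% of all genes tested. Zbp1, a sensor of Z-form nucleic acids that can start inflammatory cell death, ranged from 10.6 to 91.4 CPM (median 17.3) on CAS FAT-20 and from 4.996 to 12.5 CPM (median 7.51) on WPI FAT-20. All 12 WPI libraries lay below the CAS median and 11 below the lowest CAS library, and the log2 fold change was -1.73 ± 0.27 (SE, edgeR adjusted p = 1.51e-05). Among the GTPases, Iigp1 ranged from 8.68 to 31.3 CPM (median 12.8) on CAS and from 4.59 to 9.65 CPM (median 7.87) on WPI, with 9 WPI libraries below the lowest CAS library (-1.05 ± 0.21 SE, edgeR adjusted p = 0.000827). Gbp3 (-0.49), Gbp7 (-0.59), Irgm2 (-0.95) and Igtp (-1.41 ± 0.41 SE, edgeR adjusted p = 0.0232) also fell, and Gbp2 (-0.48 ± 0.17) and Irgm1 did not pass. Igtp reached 113 CPM in CAS FAT-20 replicate 3 against a CAS median of 11.1 CPM, and its log2 ratio of means moved from -1.41 to -0.63 without that library.

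Of the 5 genes of the immunoproteasome and peptide transport group, 4 were lower at FAT-20, and Psmb10 (-0.24 ± 0.09) did not pass. Psmb8, which ranged from 30.2 to 99.03 CPM (median 40.7) on CAS and from 20.04 to 45.1 CPM (median 26.9) on WPI, lay below the CAS median in 10 of 12 WPI libraries (-0.67 ± 0.14 SE, edgeR adjusted p = 0.0017). Psmb9, its neighbour and fellow subunit, ranged from 24.9 to 94.9 CPM (median 36.6) on CAS and from 21.3 to 35.8 CPM (median 26.9) on WPI (-0.66 ± 0.14 SE, edgeR adjusted p = 0.00208). The peptide transporters Tap1 (-0.55) and Tap2 (-0.39) fell with them, as did Nlrc5, the transactivator of class I antigen presentation genes (-0.87 ± 0.18 SE, edgeR adjusted p = 0.000976), and Irf1 (-0.40), which induces them. Psmb9 and Tap1 overlap on opposite strands, as do Irf7 and Phrf1, Rtp4 and Masp1, and Cxcl10 and Art3, and Igtp overlaps Irgm2 on the same strand. The strand setting of the counting is not given in the sources used here. Reads in such overlaps may have been given to 1 gene of a pair or placed among the ambiguous entries, which were left out. Both chemokines, which draw T cells through the receptor Cxcr3, were lower. Cxcl9 ranged from 4.72 to 20.6 CPM (median 8.46) on CAS and from 2.39 to 6.12 CPM (median 3.49) on WPI, with 9 of 12 WPI libraries below the lowest CAS library (-1.30 ± 0.27 SE, edgeR adjusted p = 0.00116), and Cxcl10 fell by 1.20 on the log2 scale (edgeR adjusted p = 0.00958).

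Most antiviral effectors did not pass at FAT-20, among them Ifit1 (-0.48 ± 0.26), Oasl2 (-0.43 ± 0.19) and the ISG15 gene itself (-0.57 ± 0.21). Isg15 ranged from 5.104 to 18.3 CPM (median 7.44) on CAS and from 2.27 to 8.04 CPM (median 6.096) on WPI, so that the groups overlapped widely. Trim30a, a ubiquitin ligase that damps inflammatory signals, fell (-0.46), and Cmpk2 rose (0.34 ± 0.10 SE, edgeR adjusted p = 0.0179). At FAT-40, 0 of the 44 members passed (edgeR; 0 also by DESeq2, and 1 at an unadjusted p under 0.05), against 0.277% of genes higher and 0.294% lower. Zbp1 differed there by -0.05 ± 0.26 and Psmb8 by -0.22 ± 0.14. That the effect of protein differed between FAT-40 and FAT-20 passed its own test in 1 member, Iigp1, described with the fat comparisons.

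At FAT-55, 10 members were lower on WPI and 0 higher, against 2.81% and 0.889% of all genes tested. Zbp1 ranged from 9.43 to 35.3 CPM (median 14.02) on CAS FAT-55 and from 4.76 to 8.89 CPM (median 7.01) on WPI FAT-55. All 12 WPI libraries lay below the lowest CAS library (-1.27 ± 0.27 SE, edgeR adjusted p = 0.00243). Bst2 ranged from 7.34 to 13.9 CPM (median 9.101) on CAS and from 5.99 to 8.58 CPM (median 6.78) on WPI (-0.49 ± 0.11 SE, edgeR adjusted p = 0.00547). Isg15 ranged from 6.58 to 19.3 CPM (median 12.1) on CAS and from 4.81 to 8.38 CPM (median 6.13) on WPI, with every WPI library below the CAS median (-0.82 ± 0.21 SE, edgeR adjusted p = 0.0106). The others that fell were Oas1a (-0.63) and Oas2 (-0.72), which make the oligoadenylates that activate RNase L, Ifi44 (-0.91), a repressor of viral growth, Xaf1 (-0.60), a promoter of apoptosis, Trim30a (-0.50), Psmb10 (-0.39) and Nlrc5 (-0.62). With counts summed by stem none of the 10 passed (edgeR adjusted p = 0.097 for Zbp1, 0.224 for Bst2 and 0.136 for Isg15). No GTPase or chemokine passed at FAT-55 in single libraries, with Igtp at -1.26 ± 0.41 and Cxcl9 at -0.32 ± 0.27.

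**Figure D3:**
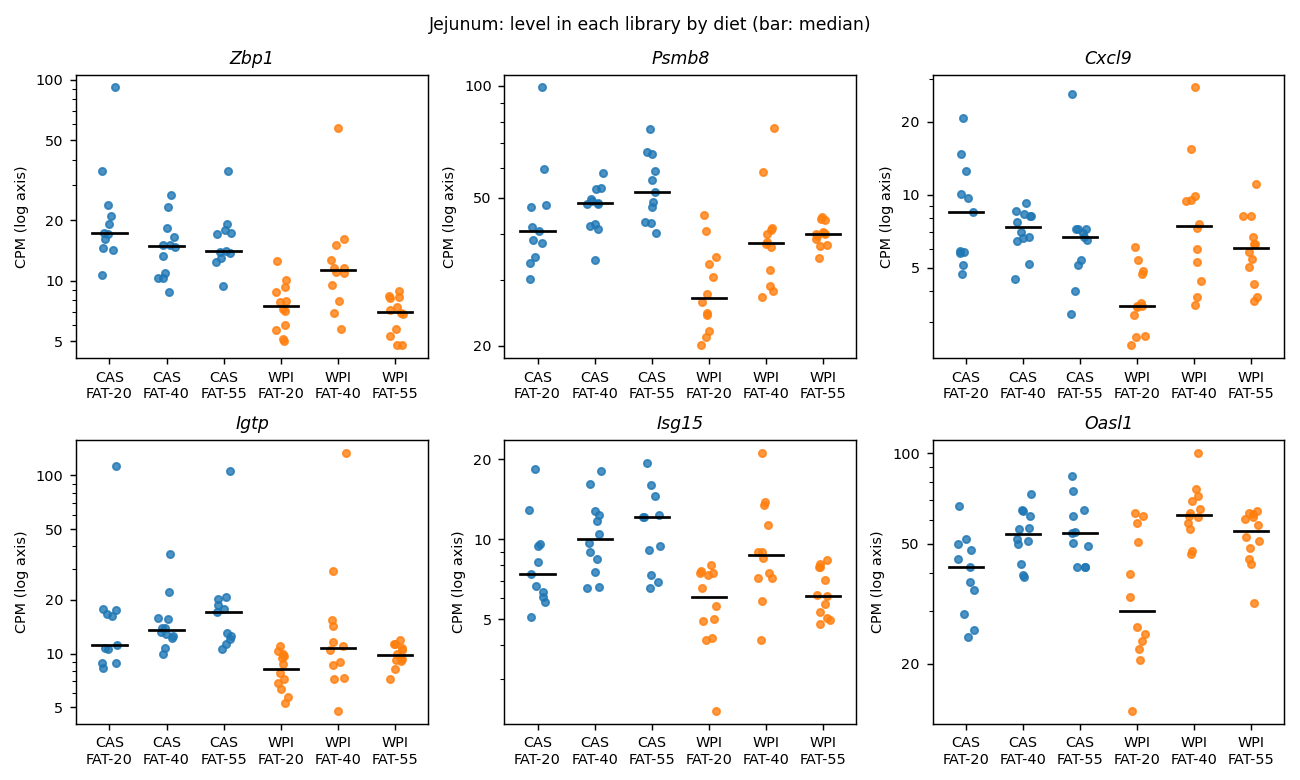
Level of 6 members in each jejunum library in CPM on a log axis (y axis), by diet (x axis), with 1 point per library, CAS in blue, WPI in orange and a bar at the median. Zbp1 on WPI FAT-55 lies between 4.76 and 8.89 CPM, below every CAS FAT-55 library (9.43 CPM or more), and Igtp shows 3 single libraries above 100 CPM against medians of 8.24 to 17.2 CPM.

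Markers of lymphocytes moved with these members. The 14 T cell and cytotoxic lymphocyte markers had summed medians of 115, 105 and 119.7 CPM on CAS at rising fat, and of 68.4, 93.4 and 80.2 CPM on WPI, and all 14 were above 0 in every jejunum library. Of these 14, 12 were lower on WPI averaged over fat, 10 at FAT-20 and 7 at FAT-55, as were all 8 B and plasma cell markers averaged over fat. With the T cell marker level as a covariate, a setting added after seeing the data, 1 member fell averaged over fat (Zbp1, -0.53) and 6 rose (Ifih1, Ddx58, Irf7, Irf9, Oas3 and Cmpk2). At FAT-20 the same covariate left 1 lower (Zbp1, -0.89) and 3 higher, and at FAT-55 1 lower (Bst2, -0.36) and 1 higher (Irf9). With counts summed by stem, 10 members were lower averaged over fat, 7 at FAT-20 and 0 at FAT-55, and 0 were higher in each. Leaving out stems lowered the count of lower members from 21 to 12 averaged over fat (without CAS FAT-40 replicates 7 to 9) and to 13 (without CAS FAT-55 replicates 3 to 5). At FAT-20 it lowered 15 to 9 (without CAS FAT-20 replicates 1 to 3) and to 10 (without WPI FAT-20 replicates 7 to 9), and at FAT-55 it lowered 10 to 5 (without WPI FAT-55 replicates 1 to 3, and likewise without CAS FAT-55 replicates 9 to 11) and to 6 (without CAS FAT-55 replicates 3 to 5).

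The next comparison asked how the fat level moved the members. In jejunum on WPI, 27 of the 44 were higher at FAT-40 than at FAT-20 and 0 lower, against 12.7% of all genes higher and 13% lower. The log2 fold change was above 0 in all 44, with a median of 0.42 over members and -0.02 over all genes. All 4 sensors rose, as did 7 of 14 antiviral effectors, 5 of 7 GTPases, 3 of 5 genes of the immunoproteasome and peptide transport group, both chemokines, Irf1, Irf7, Isg15, Rtp4, Ifi44 and Trim30a. The comparisons of FAT-40 on WPI share the WPI FAT-20 libraries with the protein comparison at FAT-20.

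Oasl1 ranged from 13.9 to 63.3 CPM (median 29.9) on WPI FAT-20 and from 46.4 to 100.4 CPM (median 62.5) on WPI FAT-40. All 12 FAT-40 libraries were above the FAT-20 median and 6 above the highest FAT-20 library (0.82 ± 0.17 SE, edgeR adjusted p = 0.000312). Ifih1, the sensor MDA5 of long double-stranded RNA, ranged from 48.2 to 127 CPM (median 65.95) at FAT-20 and from 86.9 to 134 CPM (median 96.7) at FAT-40 (0.43 ± 0.10 SE, edgeR adjusted p = 0.00113). The other sensors that rose were Ddx58, or RIG-I (0.23), Dhx58, or LGP2 (0.38), and Zbp1 (0.93). Eif2ak2, the kinase PKR that halts translation, ranged from 34.3 to 48.2 CPM (median 37.4) at FAT-20 and from 41.9 to 56.5 CPM (median 47.04) at FAT-40 (0.28 ± 0.07 SE, edgeR adjusted p = 0.0013), a small and even shift with all 12 libraries above the FAT-20 median. Oas3 rose by 0.94 (edgeR adjusted p = 0.00455), Ifit1 by 0.90, Oasl2 by 0.61 and Rsad2, the antiviral enzyme viperin, by 0.53. Isg15 ranged from 2.27 to 8.04 CPM (median 6.096) at FAT-20 and from 4.197 to 21.2 CPM (median 8.73) at FAT-40, with 7 libraries above the highest FAT-20 library (0.74 ± 0.20 SE, edgeR adjusted p = 0.00539).

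Cxcl9 ranged from 2.39 to 6.12 CPM (median 3.49) on WPI FAT-20 and from 3.51 to 27.7 CPM (median 7.46) on WPI FAT-40, with all 12 FAT-40 libraries above the FAT-20 median (1.26 ± 0.27 SE, edgeR adjusted p = 0.000404). Cxcl10 ranged from 0.241 to 1.58 CPM (median 0.898) at FAT-20 and from 0.855 to 7.87 CPM (median 1.67) at FAT-40 (1.35 ± 0.30 SE, edgeR adjusted p = 0.000706), with 9 of 12 above the FAT-20 median. The highest library for both chemokines was WPI FAT-40 replicate 5. Igtp reached 134 CPM in that library against a median of 10.7 CPM. Its log2 ratio of means moved from 1.42 to 0.51 without it. Psmb8 (0.48 ± 0.14 SE, edgeR adjusted p = 0.00986) and Irf7 (0.43 ± 0.13 SE, edgeR adjusted p = 0.0127) rose, and Gbp2 (0.22 ± 0.16) did not pass. Without WPI FAT-40 replicates 4 to 6, the count of higher members was 14, and with counts summed by stem it was 16. T cell markers rose in 6 of 14, smooth muscle markers fell in all 8 and blood markers fell in 4 of 4 in the same comparison. With the T cell marker level as a covariate 3 members rose (Ifih1, Oasl1 and Eif2ak2), and with the planned covariates for marker levels 0 did.

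On CAS, 4 members were lower at FAT-40 than at FAT-20 in jejunum and 1 higher, against 12.4% and 12.7% of all genes. The members' shares were below the background. Iigp1 ranged from 8.68 to 31.3 CPM (median 12.8) on CAS FAT-20 and from 7.53 to 12.5 CPM (median 9.65) on CAS FAT-40, with all 12 FAT-40 libraries below the FAT-20 median (-0.77 ± 0.21 SE, edgeR adjusted p = 0.00507). Gbp2 (-0.58 ± 0.17 SE, edgeR adjusted p = 0.00784), Nlrc5 (-0.58) and Zbp1 (-0.74) also fell, and Rsad2 rose (0.53 ± 0.17 SE, edgeR adjusted p = 0.0145). Ifit1 (0.63 ± 0.26), Isg15 (0.31 ± 0.21) and Cxcl9 (-0.38 ± 0.26) did not pass. Without the libraries that stood apart, 7 rose and 3 fell. Summed by stem, 2 rose and 1 fell. Without CAS FAT-20 replicates 1 to 3 the counts were 10 and 3, without CAS FAT-20 replicates 4 to 6 they were 0 and 2, and without CAS FAT-40 replicates 10 to 12 they were 1 and 2. The test of whether the FAT-40 step differed between proteins passed in Iigp1 alone (1.49 ± 0.30 SE, edgeR adjusted p = 0.0318), against 0.0118% of all genes higher and 0% lower, and in 3 members by DESeq2. Iigp1 fell by 0.77 on CAS and rose by 0.72 on WPI. Its median was 12.8 CPM on CAS FAT-20, 7.87 CPM on WPI FAT-20, 9.65 CPM on CAS FAT-40 and 9.17 CPM on WPI FAT-40. Without the libraries that stood apart the difference was 0.97 and still passed, with the rise on WPI at 0.34 (edgeR adjusted p = 0.0573). With counts summed by stem it was 1.47 (edgeR adjusted p = 0.556) and with the T cell marker level as a covariate 0.90 (edgeR adjusted p = 0.0822), and neither passed. With stems left out in turn 0 to 3 members passed this test, with 0 without CAS FAT-20 replicates 1 to 3 or 4 to 6, CAS FAT-40 replicates 1 to 3 or 4 to 6, WPI FAT-20 replicates 1 to 3 or 7 to 9, WPI FAT-40 replicates 4 to 6, CAS FAT-55 replicates 6 to 8 or WPI FAT-55 replicates 10 to 12.

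Few members passed at FAT-55 in jejunum. On CAS, 3 rose and 0 fell, against 14.4% and 13.3% of all genes. The 3 were Rsad2 (0.58 ± 0.17 SE, edgeR adjusted p = 0.00797), Psmb10 (0.24) and Oasl1 (0.45). On WPI, 4 rose and 1 fell, against 14.2% and 16.6%. On both proteins the members' shares were below the background. Irf1 ranged from 67.6 to 133 CPM (median 93.99) on WPI FAT-20 and from 108 to 174 CPM (median 128) on WPI FAT-55 (0.44 ± 0.12 SE, edgeR adjusted p = 0.00279). Psmb8 (0.46 ± 0.14 SE, edgeR adjusted p = 0.0102), Oasl1 (0.55) and Cxcl9 (0.70) also rose, and Bst2 fell (-0.29). The FAT-55 step did not differ between proteins past the test in any member (edgeR; 0 by DESeq2, 4 at an unadjusted p under 0.05, against 0% of all genes in either direction). Between FAT-40 and FAT-55, compared after the other results were seen, 3 members fell on WPI, Zbp1 (-1.09), Oas1a (-0.63) and Xaf1 (-0.56), against 0.406% of genes lower and 0.247% higher, and 0 passed on CAS (edgeR; 0 by DESeq2 and 0 at an unadjusted p under 0.05), against 0.0118% higher and 0.0177% lower. On CAS the count of higher members at FAT-55 was 13 without CAS FAT-20 replicates 1 to 3 and 1 without CAS FAT-55 replicates 1 and 2 or 9 to 11, CAS FAT-40 replicates 1 to 3, 4 to 6 or 10 to 12, WPI FAT-40 replicates 1 to 3, 7 to 9 or 10 to 12, or any 1 of the 4 WPI FAT-55 stems. Without WPI FAT-40 replicates 4 to 6, 2 rose and 3 fell, and without the libraries that stood apart 5 rose and 4 fell. On WPI it was 3 with counts summed by stem (0 lower), and 3 without WPI FAT-55 replicates 1 to 3 or WPI FAT-20 replicates 4 to 6, and 8 rose and 1 fell without the libraries that stood apart. The fall from FAT-40 to FAT-55 on WPI held in 1 member without those libraries or without WPI FAT-55 replicates 4 to 6, and in 0 with counts summed by stem or without WPI FAT-40 replicates 1 to 3 or 4 to 6, or WPI FAT-55 replicates 1 to 3, 7 to 9 or 10 to 12.

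**Figure D4:**
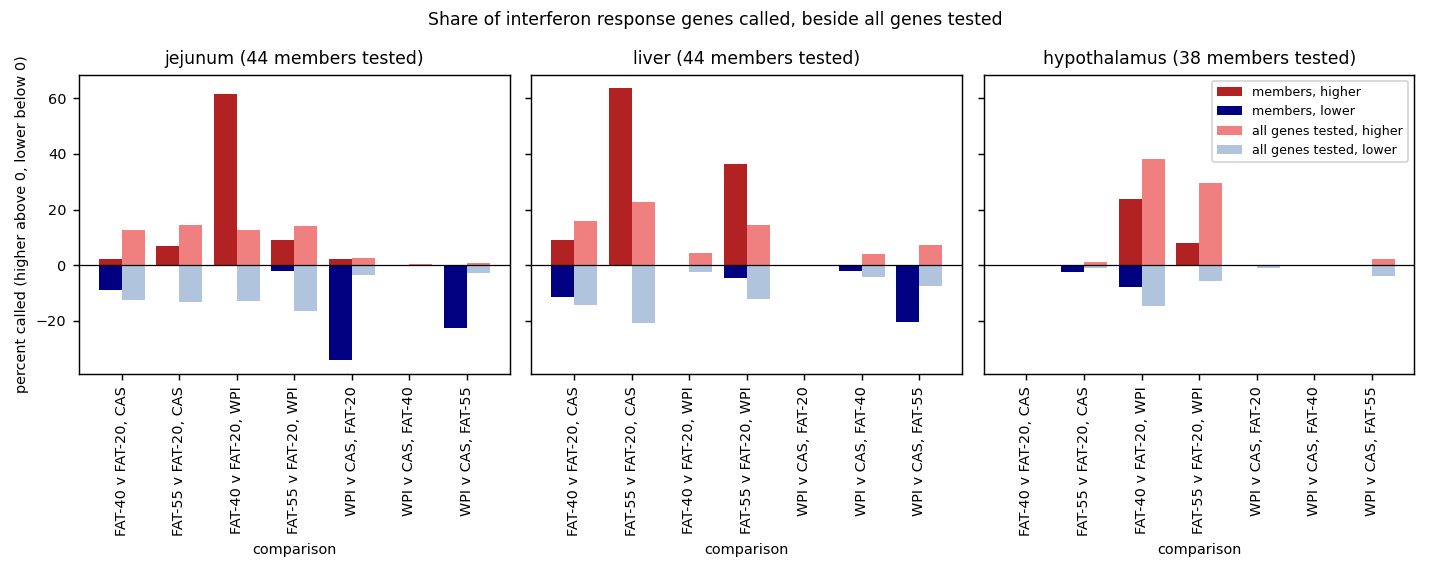
Percent of members called higher (dark red, above 0) and lower (dark blue, below 0) in 7 comparisons (x axis) for each tissue, beside the percent of all genes tested that were called higher (light red) and lower (light blue). The members' bars exceed those of all genes for FAT-40 against FAT-20 on WPI in jejunum (27 of 44 against 12.7%) and for the step to FAT-55 on CAS in liver (28 of 44 against 22.6%), and are the shorter ones in hypothalamus on WPI (9 of 38 against 38%).

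In liver the step to FAT-55 had the most members called. On CAS, 28 of the 44 were higher at FAT-55 than at FAT-20 and 0 lower (edgeR, 15051 genes tested), against 22.6% and 20.7% of all genes. The log2 fold change was above 0 in 35 members and below 0 in 9, with a median of 0.47 over the members and 0.00 over all genes. The rise took in 11 of 14 antiviral effectors, 3 of 4 sensors, Isg15 and Usp18, both chemokines, 4 of 7 GTPases (Gbp2, Gbp3, Gbp7 and Irgm1), Psmb9, Tap2, Xaf1, Ifi44, Parp14 and Trim30a, and none of the 5 transcription factors.

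Ifih1 ranged from 29.2 to 54.8 CPM (median 34.9) on CAS FAT-20 and from 46.6 to 58.95 CPM (median 53.1) on CAS FAT-55. Every FAT-55 library exceeded the median at FAT-20 (0.48 ± 0.08 SE, edgeR adjusted p = 1.01e-06). Ifit2, an RNA-binding partner of Ifit1, ranged from 3.299 to 10.998 CPM (median 4.62) at FAT-20 and from 5.92 to 15.4 CPM (median 10.9) at FAT-55, with 5 libraries above the highest FAT-20 library (0.96 ± 0.16 SE, edgeR adjusted p = 2.48e-06). Ifit3, the third protein of that complex, ranged from 7.73 to 29.3 CPM (median 10.9) at FAT-20 and from 14.7 to 37.9 CPM (median 24.4) at FAT-55 (0.95 ± 0.19 SE, edgeR adjusted p = 5.1e-05). Oasl2, an antiviral relative of the oligoadenylate synthetases, ranged from 4.02 to 11.3 CPM (median 5.58) at FAT-20 and from 7.08 to 14.4 CPM (median 10.1) at FAT-55 (0.80 ± 0.14 SE, edgeR adjusted p = 5.17e-06). In these 4 genes the highest FAT-20 library was replicate 4. Trim30a rose by 0.65 (edgeR adjusted p = 1.55e-06), Ifit1 by 0.71, Rsad2 by 0.93 and Oas3 by 1.03.

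Larger changes were those of the chemokines and Gbp2. Cxcl10 ranged from 0.645 to 6.41 CPM (median 2.21) on CAS FAT-20 and from 2.75 to 19.04 CPM (median 5.25) on CAS FAT-55 (1.46 ± 0.29 SE, edgeR adjusted p = 2.85e-05), its highest library being replicate 11. Cxcl9 ranged from 3.796 to 31.6 CPM (median 6.55) at FAT-20 and from 12.04 to 61.1 CPM (median 21.8) at FAT-55 (1.43 ± 0.31 SE, edgeR adjusted p = 0.000125). Gbp2 ranged from 3.48 to 20.95 CPM (median 4.76) at FAT-20 and from 6.94 to 40.9 CPM (median 13.8) at FAT-55 (1.27 ± 0.27 SE, edgeR adjusted p = 0.000113), with 3 libraries above the highest at FAT-20. Isg15 ranged from 2.73 to 11.3 CPM (median 4.26) at FAT-20 and from 5.02 to 11.9 CPM (median 7.69) at FAT-55 (0.69 ± 0.17 SE, edgeR adjusted p = 0.000567). Members that did not pass were Irf7 (-0.12 ± 0.13), Zbp1 (0.12 ± 0.22), Psmb8 (0.25 ± 0.15), Igtp (-0.05 ± 0.24) and Irgm2 (-0.07 ± 0.17). Igtp had its highest value, 213 CPM, in CAS FAT-20 replicate 4, where the CAS FAT-20 median was 31.9 CPM. Macrophage and dendritic cell markers rose in 7 of 12, T cell markers in 4 of 11 and fat cell markers in 3 of 3 in the same comparison, and hepatocyte markers fell in 4 of 6. Summed macrophage and dendritic cell markers ran from 166 to 542 CPM on CAS FAT-20 and from 309 to 457 CPM on CAS FAT-55. The part of the macrophage and dendritic cell, fat cell and hepatocyte markers in the result was not tested. T cell marker levels, with those of Kupffer cells, were covariates in 1 alternative fit given at the end.

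**Figure D5:**
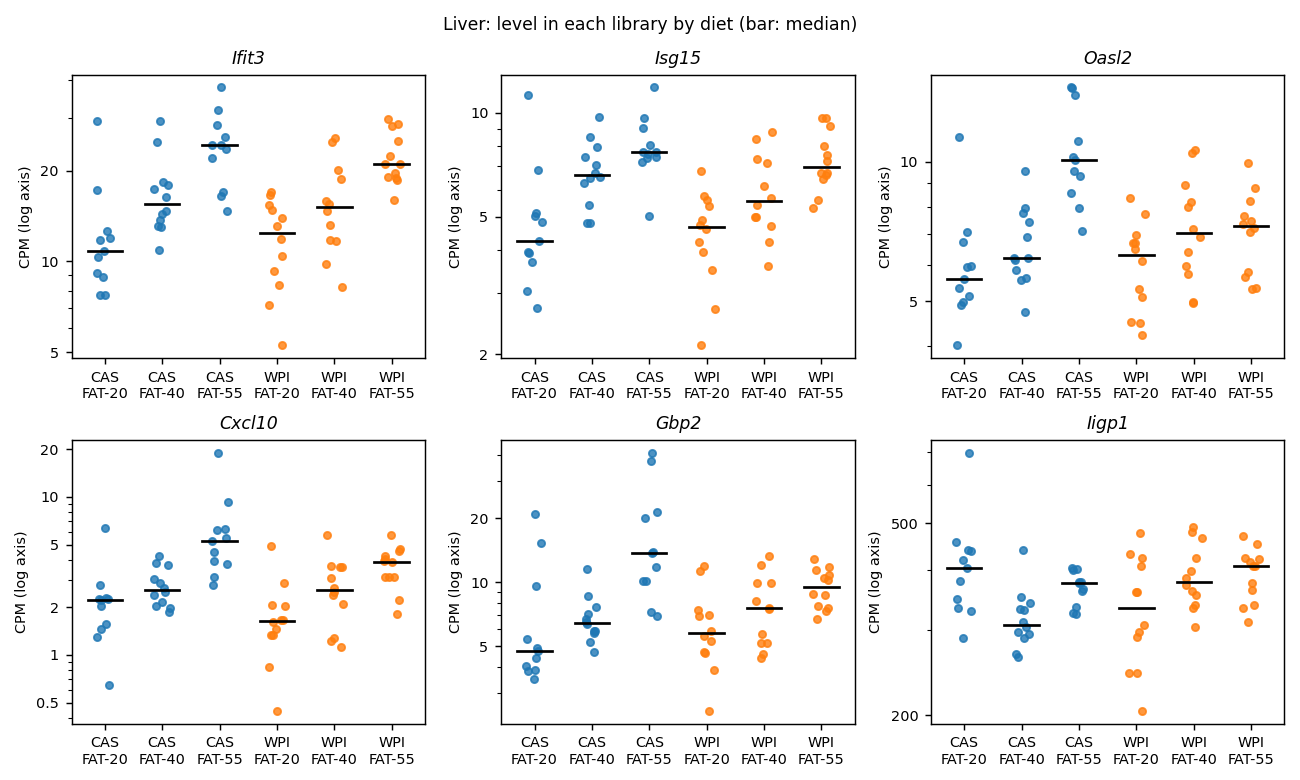
Level of 6 members in each liver library in CPM on a log axis (y axis), by diet (x axis), with 1 point per library, CAS in blue, WPI in orange and a bar at the median. Ifit3 medians rise from 10.9 to 15.5 and 24.4 CPM over FAT-20, FAT-40 and FAT-55 on CAS and from 12.5 to 15.1 and 21.1 CPM on WPI, while Iigp1 medians stay between 308 and 407 CPM.

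On WPI, 16 members were higher at FAT-55 than at FAT-20 in liver and 2 lower, against 14.6% and 12% of all genes. Ifit3 ranged from 5.26 to 17.05 CPM (median 12.5) on WPI FAT-20 and from 15.96 to 29.8 CPM (median 21.1) on WPI FAT-55, where 11 of 12 libraries exceeded the highest FAT-20 library (0.91 ± 0.18 SE, edgeR adjusted p = 0.000132). Rsad2 ranged from 5.202 to 16.1 CPM (median 9.42) at FAT-20 and from 9.66 to 23.5 CPM (median 17.5) at FAT-55, with 8 of 12 above the highest (0.70 ± 0.18 SE, edgeR adjusted p = 0.00257). Dhx58, which tunes the RNA sensors, rose by 0.49 ± 0.11 (edgeR adjusted p = 0.000393), Isg15 by 0.71, Ifit1 by 0.81 and Ifih1 by 0.30. The others that rose were Ifit2, Oasl1, Cmpk2, Psmb8, Psmb9, Tap2, Gbp7, Irgm1, Cxcl9 (0.87) and Cxcl10 (0.99). Irf7 fell, from a range of 29.9 to 66.8 CPM (median 58.5) to a range of 32.8 to 55.3 CPM (median 42.8), with every FAT-55 library below the FAT-20 median (-0.37 ± 0.12 SE, edgeR adjusted p = 0.0216). Nlrc5 fell too (-0.41 ± 0.12 SE, edgeR adjusted p = 0.00646). Oasl2 (0.24 ± 0.14) and Gbp2 (0.56 ± 0.26) did not pass on WPI. With counts summed by stem, 7 rose and 1 fell.

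Set against CAS at FAT-55, WPI livers had 9 members lower and 0 higher, against 7.43% and 7.07% of all genes. They were Ifit2 (-0.49), Oasl2, Oas2 (-0.42), Oas3 (-0.73), Bst2 (-0.23), Trim30a (-0.30), Gbp2, Cxcl9 and Cxcl10 (-0.77). Oasl2 ranged from 7.08 to 14.4 CPM (median 10.1) on CAS FAT-55 and from 5.33 to 9.94 CPM (median 7.27) on WPI FAT-55, with all 12 WPI libraries below the CAS median (-0.57 ± 0.14 SE, edgeR adjusted p = 0.00308). Gbp2 ranged from 6.94 to 40.9 CPM (median 13.8) on CAS and from 6.696 to 12.9 CPM (median 9.497) on WPI (-0.89 ± 0.26 SE, edgeR adjusted p = 0.0137), and Cxcl9 from 12.04 to 61.1 CPM (median 21.8) on CAS and from 9.88 to 22.2 CPM (median 15.6) on WPI (-0.88 ± 0.29 SE, edgeR adjusted p = 0.031). In both, the groups overlapped. Isg15 (-0.13 ± 0.16) and Ifit1 (0.03 ± 0.20) did not pass. The FAT-55 step itself did not differ between proteins past the test in any member (edgeR; 7 at an unadjusted p under 0.05), against 3% of genes higher and 3.82% lower, whereas DESeq2 gave 4 lower and edgeR without the libraries that stood apart gave 8 lower. The count of 9 fell to 2 without CAS FAT-55 replicates 6 to 8, to 3 without CAS FAT-55 replicates 9 to 11, to 4 without WPI FAT-55 replicates 1 to 3, and to 0 with counts summed by stem. Macrophage and dendritic cell markers were lower on WPI in 3 of 12 and T cell markers in 2 of 11.

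Fewer members passed at FAT-40 in liver. On CAS, 4 members rose and 5 fell, against 15.8% and 14.4% of all genes, so the members' shares were below the background. Ifih1 ranged from 45.4 to 55.3 CPM (median 51.6) on CAS FAT-40 and lay above the FAT-20 median in all 12 libraries (0.44 ± 0.08 SE, edgeR adjusted p = 9.4e-06), and Isg15 (0.45), Ifi44 (0.46) and Trim30a (0.29) rose as well. The 5 that fell were Irgm2 (-0.63 ± 0.17 SE, edgeR adjusted p = 0.00279), Irf9 (-0.26), Igtp (-0.86), Iigp1 (-0.37) and Zbp1 (-0.55). Without CAS FAT-20 replicate 4 the counts were 16 higher and 3 lower, with Igtp at -0.31 and Zbp1 at -0.14, neither of which passed. Without CAS FAT-20 replicates 4 to 6 the counts were 17 and 3, and with counts summed by stem they were 1 and 2. On WPI, 0 members passed (edgeR; 0 by DESeq2, 11 at an unadjusted p under 0.05), against 4.19% of genes higher and 2.35% lower. Ifit1 (0.29 ± 0.20), Isg15 (0.40 ± 0.16) and Cxcl9 (0.72 ± 0.30) were among those that did not pass.

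The FAT-40 step differed between proteins in 2 members in liver, against 0.877% of genes higher and 0.611% lower. Iigp1 ranged from 289 to 699 CPM (median 403) on CAS FAT-20, from 264 to 439 CPM (median 308) on CAS FAT-40, from 204 to 477 CPM (median 334) on WPI FAT-20 and from 305 to 489.8 CPM (median 378) on WPI FAT-40. It fell on CAS and did not pass on WPI (0.22 ± 0.10), and the difference of the steps was 0.59 ± 0.15 (SE, edgeR adjusted p = 0.0258). Irf9, the DNA-binding partner of STAT2, had medians of 36.1 and 31.5 CPM on CAS FAT-20 and FAT-40 and of 32.1 and 35.2 CPM on WPI, and its difference of the steps was 0.38 ± 0.10 (SE, edgeR adjusted p = 0.0353). Both passed without CAS FAT-20 replicate 4 (0.49 and 0.33), and the count was 0 with no filter on low counts, with counts summed by stem and without CAS FAT-20 replicates 1 to 3, WPI FAT-20 replicates 7 to 9 or 10 to 12, CAS FAT-40 replicates 4 to 6 or 7 to 9, or WPI FAT-40 replicates 1 to 3. Irf9 overlaps Rnf31 on the same strand.

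From FAT-40 to FAT-55, compared after the other results were seen, 9 members rose on CAS in liver and 0 fell, against 2.61% and 0.99% of all genes. They were Oasl2 (0.67 ± 0.14 SE, edgeR adjusted p = 0.00213), Gbp2 (1.37 ± 0.26 SE, edgeR adjusted p = 0.00112), Cxcl9 (1.35), Cxcl10 (1.19), Ifit2 (0.62), Usp18 (0.52), Trim30a (0.37), Igtp (0.81) and Irgm2 (0.56). The count ran from 3 (without CAS FAT-55 replicates 6 to 8 or 9 to 11, or CAS FAT-40 replicates 10 to 12) to 17 (without CAS FAT-20 replicates 4 to 6) with stems left out, was 15 without CAS FAT-20 replicate 4, and was 0 with counts summed by stem. On WPI, 0 passed (edgeR; 0 by DESeq2, 5 at an unadjusted p under 0.05), against 1.36% higher and 0.924% lower. Averaged over fat levels, 0 members were higher and 3 lower on WPI in liver, against 7.1% and 7.56% of all genes. The members' shares were thus not above the background. The 3 lower members were Bst2 (-0.18 ± 0.04 SE, edgeR adjusted p = 0.002), Dhx58 (-0.23) and Eif2ak2 (-0.15). At FAT-40 Bst2 alone was lower (-0.24 ± 0.07 SE, edgeR adjusted p = 0.0357), against 3.85% higher and 4.37% lower, and at FAT-20 0 members passed (edgeR; 0 by DESeq2, 7 at an unadjusted p under 0.05), against 0.219% and 0.292%. The members' shares were below those of all genes at both of these fat levels. Summed by stem, 1 member was lower averaged over fat and 0 at FAT-40. Bst2 had liver medians of 80.2 CPM on CAS FAT-40 and 70.8 CPM on WPI FAT-40, and 7 of 12 WPI FAT-55 libraries lay below the lowest CAS FAT-55 library.

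In hypothalamus 38 members had values high enough to be tested, Zbp1, Oasl1, Cxcl9 and Cxcl10 being below the limit. Protein moved 0 of the 38 at any fat level or averaged over fat (limma; 0 by edgeR on whole reads recovered from the values; 3, 7, 1 and 1 at an unadjusted p under 0.05 averaged, at FAT-20, at FAT-40 and at FAT-55). Of all genes, 0.324% were higher and 1.83% lower averaged over fat, 0.00674% and 1% at FAT-20, 0% and 0% at FAT-40, and 2.05% and 3.87% at FAT-55. On WPI, 9 members were higher and 3 lower at FAT-40 than at FAT-20 (limma on log2(value + 1), 14830 genes tested). Of all genes tested 38% were higher and 14.6% lower, so the members' shares were below the background. The median log2 fold change was 0.04 over members and 0.12 over all genes. The edgeR test on recovered reads gave 4 higher and 7 lower.

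Oas2, an oligoadenylate synthetase, ranged from 1.196 to 20.98 (median 6.58) in normalised counts on WPI FAT-20 and from 8.98 to 23.1 (median 19.9) on WPI FAT-40. All 11 FAT-40 libraries lay above the FAT-20 median (1.09 ± 0.27 SE, limma adjusted p = 0.00204). Tap2 ranged from 55.8 to 154 (median 116) at FAT-20 and from 120.4 to 200.8 (median 142) at FAT-40 (0.47 ± 0.12 SE, limma adjusted p = 0.00248), and Tap1 from 43.8 to 106 (median 91.6) and from 85.9 to 134 (median 109.9) (0.46 ± 0.13 SE, limma adjusted p = 0.00334). Parp14, an ADP-ribosyltransferase, rose by 0.54 (limma adjusted p = 0.00747), Oas3 by 1.19, Eif2ak2 by 0.33, Stat2, a transcription factor activated by type I interferon, by 0.33, Ifih1 by 0.31 and Ddx58 by 0.26. Psmb10 (-0.67 ± 0.21 SE, limma adjusted p = 0.00762), Ifit3 (-0.65) and Iigp1 (-0.66) fell. Psmb10 ranged from 507 to 2473 (median 734) at FAT-20 and from 464 to 691 (median 567) at FAT-40, with all FAT-40 libraries below the FAT-20 median. Isg15 (-0.41 ± 0.28), Ifit1 (-0.51 ± 0.26), Gbp2 (0.02 ± 0.18) and Irf7 (0.03 ± 0.17) did not pass. The counts were 1 and 0 without WPI FAT-20 replicates 4 to 6, 6 and 1 without WPI FAT-20 replicates 1 to 3, 5 and 2 without WPI FAT-40 replicates 9 to 11, and 0 and 0 with values averaged by stem. Endothelial markers rose in 4 of 6 and blood markers fell in 2 of 5, and their part was not tested.

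At FAT-55 on WPI 3 members rose in hypothalamus, Oas2 (0.90 ± 0.27 SE, limma adjusted p = 0.00721), Tap1 (0.39) and Tap2 (0.38), and 0 fell. Of all genes 29.5% rose and 5.84% fell, so the members' shares were again below the background. Depending on the stem left out the counts ran from 1 and 0 (without WPI FAT-55 replicates 7 to 9) to 8 and 5 (without WPI FAT-20 replicates 9 to 11), and edgeR on recovered reads gave 0 and 2. With values averaged by stem 1 rose. On CAS, Irgm1, a regulator of the GTPase family, was lower at FAT-55. It ranged from 51.5 to 122 (median 71.3) on CAS FAT-20 and from 31.4 to 70.4 (median 46.8) on CAS FAT-55, with all 11 FAT-55 libraries below the FAT-20 median (-0.66 ± 0.18 SE, limma adjusted p = 0.0434), against 1.06% of genes lower and 1.27% higher. It did not pass without any 1 of the 4 CAS FAT-55 stems or of the 4 WPI FAT-40 stems, nor without CAS FAT-20 replicate 4 or 5 to 7, CAS FAT-40 replicates 3 to 5 or 6 to 8, or WPI FAT-55 replicates 7 to 9. The counts were 4 higher and 6 lower without CAS FAT-20 replicates 8 to 10, and 2 and 7 without replicates 1 to 3, and 3 were lower without WPI FAT-55 replicates 4 to 6 or WPI FAT-20 replicates 1 to 3, 4 to 6 or 9 to 11. It did not pass with values averaged by stem either, and the edgeR test on recovered reads gave 5 lower. On CAS at FAT-40 0 members passed (limma; 3 lower by edgeR on recovered reads; 9 at an unadjusted p under 0.05), against 0.189% higher and 0.0472% lower. The tests of a difference between proteins gave 0 at FAT-40 and at FAT-55 (limma; 0 by edgeR; 4 and 3 at an unadjusted p under 0.05), against 0.0742% and 1.83% of genes higher and 0% and 1.67% lower. From FAT-40 to FAT-55 0 passed on CAS or WPI (limma; 0 by edgeR; 1 and 1 at an unadjusted p under 0.05), against 0% and 0.459% higher and 0.0472% and 4.74% lower.

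The interferon genes themselves were at or near 0. Ifnb1, a type I interferon, had no read in any jejunum or liver library and 2 reads in 1 hypothalamus library, and Ifnl2 and Ifnl3, the type III interferons, had none in any library. The shallowest jejunum library had 17.5 M reads, and whether depth or another reason gave the absence of reads was not tested. Ifng, the type II interferon, had reads in 34 of 70 jejunum libraries (at most 6 reads), 29 of 70 liver libraries (at most 3) and 9 of 67 hypothalamus libraries (at most 6). Ifnk, a further interferon gene given outside the naming rule below, had reads in 35 of 70 jejunum libraries (at most 3). It also had reads in 47 of 70 liver libraries (at most 6) and 4 of 67 hypothalamus libraries (at most 2).

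Other genes of the pathway, from a wider list of receptors, sensors, inhibitors and induced genes that holds none of the 44, were counted in the same comparisons. In jejunum, 42 of 92 tested were lower on WPI averaged over fat and 4 higher, 30 were lower at FAT-20 and 15 at FAT-55, against 8.83%, 6.5%, 3.57% and 2.81% of all genes in that order. Slfn2, which keeps T cells quiescent, fell by 0.67 averaged over fat (edgeR adjusted p = 3.12e-07), with Casp4 (-0.65), the caspase that senses lipopolysaccharide, Sp110 (-0.61) and Ly6a (-0.31). At FAT-20 Gbp8 (-0.66), Gbp4 (-0.78) and Ccl5 (-0.92), a T cell chemokine, were lower as well. On WPI, 32 of the 92 were higher at FAT-40 than at FAT-20 in jejunum and 1 lower, against 12.7% and 13% of all genes, led by Samd9l (0.66 ± 0.12 SE, edgeR adjusted p = 8.98e-05) and by H2-K1 (0.52) and B2m (0.50), the chains of a class I molecule. Ikbke, a kinase that activates interferon regulatory factors, fell (-0.27). In liver, 46 of 91 were higher and 9 lower at FAT-55 than at FAT-20 on CAS, against 22.6% and 20.7% of all genes, where Samd9l (1.19 ± 0.14 SE, edgeR adjusted p = 2.44e-10), Ikbke (0.84), Slfn5 (0.63) and Phf11d (0.53) led. On WPI 18 were higher and 2 lower, against 14.6% and 12% of all genes, with Pnpt1 (0.26), a mitochondrial RNA nuclease, Ifi35 (0.34), Samd9l (0.59) and Ifit3b (0.90). Ikbke was lower at FAT-40 and at FAT-55 than at FAT-20 on both proteins in jejunum (-0.17 to -0.35) and higher in all 4 of these comparisons in liver (0.36 to 0.84), and the difference between tissues was not tested. In hypothalamus 27 of 79 were higher and 5 lower at FAT-40 on WPI, a smaller share than the 38% of all genes that were higher and the 14.6% that were lower. The first by adjusted p were Pias1 (0.35), Jak1 (0.36), Socs3 (0.79), a feedback inhibitor, and Jak2 (0.45).

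Whether the members rose and fell together across tissues of the same mice was examined within diets, for Ifit1, Oasl2, Irf7, Psmb8, Cxcl9 and Gbp2 and the 3 pairs of tissues, 18 relations in all. Deviations from the diet mean were averaged by identifier stem. None of the 18 passed (0 at a Benjamini-Hochberg adjusted two-sided permutation p under 0.05, 100000 resamples). The largest was Oasl2 between liver and hypothalamus over 23 stems (Pearson r 0.64, permutation p = 0.0128, adjusted p = 0.23; Spearman rho 0.49, permutation p = 0.0333, adjusted p = 0.42), and r was 0.38 without the 2 stems farthest from the median. Gbp2 had r of 0.56 between liver and hypothalamus (permutation p = 0.0438; rho 0.36, permutation p = 0.117) and of 0.55 between jejunum and liver over 24 stems (permutation p = 0.0453; rho 0.44, permutation p = 0.0852). The adjusted permutation p was 0.272 for both values of r, which were 0.37 and 0.33 without the 2 farthest stems. For Irf7 between jejunum and liver rho was 0.36 (permutation p = 0.107), and 0.55 (adjusted permutation p = 0.0488) without the 2 farthest stems.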

How the data were processed

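Bulk RNA-seq of jejunum, liver and hypothalamus was analysed. Trim Galore 0.61, FastQC, cutadapt, the aligner STAR and the package DESeq2 1.24.0 are named with GRCm38, per the submitters' processing notes; the counting tool, its strand setting and the annotation are not given in the sources used here. The deposited jejunum and liver values are raw counts per gene. Their summary lines, which name no gene, were left out (jejunum ambiguous 5.23%, multimapping 8.00%, no feature 6.34%, unmapped 3.45% of entries; liver 5.20%, 7.71%, 5.60%, 5.30%). The deposited hypothalamus values are a signal, counts divided by a size factor, from which whole reads were recovered for 100% of positive values within 0.05 reads (size factors 0.712 to 1.08).

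Jejunum and liver were tested with edgeR 4.0.16 (filterByExpr with a minimum count of 10, TMM, quasi-likelihood test), and hypothalamus with limma 3.58.1 on log2(value + 1) for genes at 10 or more in at least 10 libraries, so that fold changes there are on that scale and understate those of low genes. Each fit held all 6 diets of a tissue, with p adjusted by Benjamini-Hochberg over all genes and called under 0.05. Alternatives were DESeq2 1.42.0, other scaling, filters and pseudocounts, sums by identifier stem, stems left out, marker covariates, and settings added after seeing the data. The planned marker covariates were smooth muscle and fat cells in jejunum, Kupffer cells and T cells in liver, and thalamus and choroid plexus in hypothalamus. Scripts were tested on simulated data. The members and lists were chosen with earlier results of these data known. Members were named by a rule: up to 6 called members per comparison by smallest adjusted p (mean of at least 1 CPM, or 10 in hypothalamus), with Ifit1, Isg15, Oasl2, Irf7, Zbp1, Psmb8, Cxcl9 and Gbp2, and up to 4 other pathway genes with Ifng, Ifnb1, Ifnl2 and Ifnl3, and 1 further gene of the rule is not reported here; fold changes of further called members were added.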

Additional observations from a re-analysis of the deposited data

Results flagged for a closer look

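In hypothalamus on CAS FAT-20 (10 libraries) the highest library lay far from the rest for 12 of 42 members. The measure was its gap to the next library divided by the range of the group. Only this group was measured, as every other group held more than 10 libraries. Chance gives about 1 in 20 for independent values with a normal spread. Members that move together in 1 library are not independent, so the 12 cannot be set against that rate. Replicate 6 was that library for 11 of them. The ratio was 0.6636 for Bst2, 0.5822 for Cxcl9, 0.5181 for Ifit1, 0.708 for Ifit3, 0.7067 for Iigp1, 0.5922 for Irf9, 0.8095 for Isg15, 0.4702 for Psmb8, 0.7021 for Psmb9, 0.5284 for Xaf1 and 0.5528 for Zbp1. Isg15 was at a normalised count of 136 there, against 34.6 in the next library and a median of 22.7, and Bst2 at 313 against 141 and 76.6. The summed blood markers of that library (58495) ranked first of its diet, and their part was not tested. Replicate 3 was the highest library for Oasl1 (ratio 0.6232), with 16.5 against 6.85 in the next.

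The FAT-40 step differed between WPI and CAS, by the test of the difference itself, in 3 cases. The difference in log2 fold change was 1.4913 for Iigp1 in jejunum, 0.5887 for Iigp1 in liver and 0.3765 for Irf9 in liver. Iigp1 in jejunum was at 0.97 and still called without the libraries that stood apart, and was not called at 1.47 with counts summed by stem or at 0.90 with the T cell marker level as a covariate.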

How the results depend on the processing

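The rise of 28 members from FAT-20 to FAT-55 on CAS in liver stayed within 1.5 times under every alternative tried. The count ran from 22 with marker levels as covariates to 34 without the library that stood apart. That library was picked for high members in the FAT-20 group, so leaving it out favours a higher count and is no check of the rise. Counts below are members called higher or lower together, with the value in brackets as reported. With counts summed by stem, the counts were jejunum WPI against CAS averaged over fat 10 (from 22), WPI against CAS at FAT-20 7 (from 16), WPI against CAS at FAT-55 0 (from 10), FAT-40 against FAT-20 on CAS 3 (from 5), FAT-40 against FAT-20 on WPI 16 (from 27), FAT-55 against FAT-20 on WPI 3 (from 5), protein dependence of FAT-40 against FAT-20 0 (from 1), FAT-55 against FAT-40 on WPI 0 (from 3), liver WPI against CAS averaged over fat 1 (from 3), WPI against CAS at FAT-40 0 (from 1), WPI against CAS at FAT-55 0 (from 9), FAT-40 against FAT-20 on CAS 3 (from 9), FAT-55 against FAT-20 on WPI 8 (from 18), protein dependence of FAT-40 against FAT-20 0 (from 2), FAT-55 against FAT-40 on CAS 0 (from 9). With the T cell covariate, the counts were jejunum WPI against CAS averaged over fat 7 (from 22), WPI against CAS at FAT-20 4 (from 16), WPI against CAS at FAT-55 2 (from 10), FAT-40 against FAT-20 on CAS 14 (from 5), FAT-40 against FAT-20 on WPI 3 (from 27), FAT-55 against FAT-20 on CAS 8 (from 3), protein dependence of FAT-40 against FAT-20 0 (from 1), FAT-55 against FAT-40 on WPI 1 (from 3). With marker levels as covariates, the counts were jejunum FAT-40 against FAT-20 on CAS 0 (from 5), FAT-40 against FAT-20 on WPI 0 (from 27), FAT-55 against FAT-20 on CAS 1 (from 3), FAT-55 against FAT-20 on WPI 0 (from 5), liver WPI against CAS at FAT-40 3 (from 1), WPI against CAS at FAT-55 4 (from 9), FAT-40 against FAT-20 on WPI 1 (from 0), FAT-55 against FAT-40 on CAS 0 (from 9), hypothalamus FAT-55 against FAT-20 on CAS 0 (from 1). Without the libraries that stood apart, the counts were jejunum FAT-40 against FAT-20 on CAS 10 (from 5), FAT-55 against FAT-20 on CAS 9 (from 3), FAT-55 against FAT-20 on WPI 9 (from 5), FAT-55 against FAT-40 on WPI 1 (from 3), liver WPI against CAS at FAT-20 2 (from 0), WPI against CAS at FAT-40 2 (from 1), FAT-40 against FAT-20 on CAS 19 (from 9), FAT-40 against FAT-20 on WPI 3 (from 0), protein dependence of FAT-55 against FAT-20 8 (from 0), FAT-55 against FAT-40 on CAS 15 (from 9). With no filter on low counts, the counts were jejunum FAT-55 against FAT-20 on CAS 1 (from 3), FAT-55 against FAT-20 on WPI 3 (from 5), FAT-55 against FAT-40 on WPI 1 (from 3), liver WPI against CAS at FAT-40 0 (from 1), WPI against CAS at FAT-55 5 (from 9), FAT-40 against FAT-20 on CAS 5 (from 9), protein dependence of FAT-40 against FAT-20 0 (from 2). By DESeq2, the counts were jejunum protein dependence of FAT-40 against FAT-20 3 (from 1), liver WPI against CAS at FAT-40 3 (from 1), protein dependence of FAT-55 against FAT-20 4 (from 0). By edgeR on recovered reads, the counts were hypothalamus FAT-40 against FAT-20 on CAS 3 (from 0), FAT-55 against FAT-20 on CAS 5 (from 1). With GC and length trends removed, the counts were hypothalamus FAT-40 against FAT-20 on CAS 1 (from 0), FAT-40 against FAT-20 on WPI 7 (from 12), FAT-55 against FAT-20 on CAS 3 (from 1). With values averaged by stem, the counts were hypothalamus FAT-40 against FAT-20 on WPI 0 (from 12), FAT-55 against FAT-20 on CAS 0 (from 1), FAT-55 against FAT-20 on WPI 1 (from 3). With no filter on low values, the counts were hypothalamus FAT-55 against FAT-20 on CAS 0 (from 1). With each identifier stem left out in turn the counts ranged for jejunum WPI against CAS averaged over fat 13 to 23, jejunum WPI against CAS at FAT-20 10 to 18, jejunum WPI against CAS at FAT-55 5 to 14, jejunum FAT-40 against FAT-20 on CAS 2 to 13, jejunum FAT-40 against FAT-20 on WPI 14 to 33, jejunum FAT-55 against FAT-20 on CAS 1 to 13, jejunum FAT-55 against FAT-20 on WPI 3 to 6, jejunum protein dependence of FAT-40 against FAT-20 0 to 3, jejunum FAT-55 against FAT-40 on WPI 0 to 4, liver WPI against CAS averaged over fat 3 to 5, liver WPI against CAS at FAT-20 0 to 5, liver WPI against CAS at FAT-40 0 to 3, liver WPI against CAS at FAT-55 2 to 11, liver FAT-40 against FAT-20 on CAS 6 to 20, liver FAT-40 against FAT-20 on WPI 0 to 3, liver protein dependence of FAT-40 against FAT-20 0 to 4, liver protein dependence of FAT-55 against FAT-20 0 to 12, liver FAT-55 against FAT-40 on CAS 3 to 17, liver FAT-55 against FAT-40 on WPI 0 to 1, hypothalamus WPI against CAS averaged over fat 0 to 7, hypothalamus WPI against CAS at FAT-20 0 to 9, hypothalamus FAT-40 against FAT-20 on CAS 0 to 7, hypothalamus FAT-40 against FAT-20 on WPI 1 to 18, hypothalamus FAT-55 against FAT-20 on CAS 0 to 10, hypothalamus FAT-55 against FAT-20 on WPI 1 to 13, hypothalamus protein dependence of FAT-40 against FAT-20 0 to 4, hypothalamus protein dependence of FAT-55 against FAT-20 0 to 1. With the T cell covariate some called log2 fold changes in jejunum turned above 0, for WPI against CAS averaged over fat Usp18 0.12, Xaf1 0.0102, Tap1 0.12, Tap2 0.025, Gbp3 0.012, Gbp7 0.046, Igtp 0.32, Irgm2 0.084, Cxcl9 0.18, Cxcl10 0.0604 and for WPI against CAS at FAT-20 Irf1 0.026, Tap1 0.082, Tap2 0.043, Igtp 0.55, Irgm2 0.014; the cause was not tested. No paired analysis was possible because replicate numbers are given in accession order and no animal was given more than 1 diet. Members with few reads, such as Cxcl9 in hypothalamus, may differ by amounts these tests cannot show, and the part of depth in their low counts was not tested.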
